A study of Rattus norvegicus with 10 samples.

Results

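The *Cyp4* family members *Cyp4a1*, *Cyp4a2*, *Cyp4a3*, *Cyp4a8*, *Cyp4b1*, *Cyp4f1*, *Cyp4f4* and *Cyp4v3* were examined in the renal cortex of PCK rats of either sex. These members were chosen by gene symbol, and the family was picked because earlier values of these same libraries had differed between the sexes for *Cyp4a2* and *Cyp4b1*. The members were part of the fit over all genes, but since they were selected on this contrast their sex difference is given as a description, with no p. Of the 8 symbols, 7 had a row in the expression table and *Cyp4a3* was not analysed here. *Cyp4a2* was listed under 2 identifiers, so 8 of the 32545 rows of the table were members.

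Cortex was taken from 5 male and 5 female PCK rats and sequenced as poly(A) RNA, with 1 library per rat. Every rat, of either sex, carries the *Pkhd1* mutation of the PCK strain, a model of autosomal recessive polycystic kidney disease, and no rat without the mutation was compared here. The study's methods give littermates from 2 litters and kidneys flushed with saline before freezing, and the litter of each rat was not used. The age is 10 to 12 weeks in the methods and 12 to 14 weeks in the labels, which name the tissue as kidney.

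*Cyp4* enzymes are cytochromes P450 of the endoplasmic reticulum that add a hydroxyl group to the terminal carbon of fatty acids. Acting on arachidonic acid they form 20-hydroxyeicosatetraenoic acid (20-HETE), which constricts small renal arteries and inhibits sodium transport in the proximal tubule and the thick ascending limb. *Cyp4a* enzymes are abundant in the proximal tubule, and their genes are textbook targets of the fatty acid receptor PPAR-alpha. In the rat kidney *Cyp4a2* has long been known as a male-predominant form. The enzymes draw electrons from P450 reductase and compete for arachidonic acid with the epoxygenases of the *Cyp2c* and *Cyp2j* families.

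On the rat build Rnor_6.0, which the table uses, 6 *Cyp4* rows stood within 597 kb of chromosome 5. In order of position these were *Cyp4x1* (133929532 to 133959447, minus strand), *Cyp4a8* (133978954 to 134008255, minus), *Cyp4a2* as ENSRNOG00000030154 (134196912 to 134207863, minus), *Cyp4a2* as ENSRNOG00000009741 (134469270 to 134484839, minus), *Cyp4a1* (134492756 to 134507154, plus) and *Cyp4b1* (134508730 to 134526089, minus). ENSRNOG00000030154 is called the first and ENSRNOG00000009741 the second *Cyp4a2* row from here on. A gap of 261 kb with 4 other rows separated them, whereas the second *Cyp4a2* row lay 7.92 kb from *Cyp4a1* and *Cyp4a1* lay 1.58 kb from *Cyp4b1*. *Cyp4f4* (14891001 to 14907305, plus strand) and *Cyp4f1* (15179467 to 15190796, minus) are on chromosome 7, and *Cyp4v3* (50111306 to 50136727, plus) is on chromosome 16. No member row overlapped another row. RefSeq lists 5 coding *Cyp4a* genes and 3 *Cyp4a* pseudogenes on chromosome 5 of the later build GRCr8, with *Cyp4a3* as the neighbour of *Cyp4a1* and another of the coding genes, *Cyp4a2l1*, between *Cyp4a2* and *Cyp4a3*, and which of these genes each *Cyp4a2* row stands for was not tested. Reads of near-identical *Cyp4a* copies could be assigned to either copy, so levels of the *Cyp4a* rows are uncertain to that extent.

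The 250 bases before the RefSeq start of 4 chromosome 5 genes are shown because these genes differ in their sex pattern or, for *Cyp4a3*, have nearly the upstream sequence of *Cyp4a2*. All are from GRCr8, read 5′ to 3′ on the minus strand, and capitals mark the motif found, which is AGGTCA (a hexamer bound by PPAR and other nuclear receptors) or TTCNNNGAA (the site of STAT factors).
Cyp4a2, chr5:134170909-134171158: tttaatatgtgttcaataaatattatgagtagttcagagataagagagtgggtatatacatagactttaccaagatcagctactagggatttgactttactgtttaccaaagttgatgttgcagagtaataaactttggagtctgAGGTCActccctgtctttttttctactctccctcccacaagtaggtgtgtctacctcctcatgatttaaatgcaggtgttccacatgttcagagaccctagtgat
Cyp4a3, chr5:134352237-134352486: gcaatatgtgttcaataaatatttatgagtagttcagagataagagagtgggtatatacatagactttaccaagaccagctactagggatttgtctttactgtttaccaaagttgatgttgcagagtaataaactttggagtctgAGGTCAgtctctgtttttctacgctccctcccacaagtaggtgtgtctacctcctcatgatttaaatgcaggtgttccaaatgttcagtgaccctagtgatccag
Cyp4a8, chr5:133970227-133970476: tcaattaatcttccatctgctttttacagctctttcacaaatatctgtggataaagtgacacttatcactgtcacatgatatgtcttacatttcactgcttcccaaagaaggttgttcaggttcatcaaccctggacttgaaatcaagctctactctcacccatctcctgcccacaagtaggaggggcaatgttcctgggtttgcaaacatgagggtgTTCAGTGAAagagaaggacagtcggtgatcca
Cyp4b1, chr5:134393117-134393366: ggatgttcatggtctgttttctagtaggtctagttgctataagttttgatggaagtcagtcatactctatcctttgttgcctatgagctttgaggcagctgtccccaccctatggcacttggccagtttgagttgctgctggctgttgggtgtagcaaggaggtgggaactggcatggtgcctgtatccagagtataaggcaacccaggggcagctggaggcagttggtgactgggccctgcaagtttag

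Upstream of *Cyp4a2* and of *Cyp4a3*, AGGTCA lay at the same place, 105 to 100 bases before the start, and 92.5% of the aligned columns of the 2 sequences were identical. Upstream of *Cyp4a2l1* the same hexamer lay 69 to 64 bases before the start. Its sequence matched *Cyp4a2* letter for letter over the 214 bases that both stretches cover. These were 74.8% of 286 aligned columns, and the rest were unpaired ends, since the RefSeq start lies at another place. Against *Cyp4a3*, 70.1% of the aligned columns of *Cyp4a2l1* matched, a share that counts unpaired ends too. By the same alignment *Cyp4a2* matched *Cyp4a8* in 57.4% and *Cyp4b1* in 49.0% of columns. *Cyp4a8* held TTCAGTGAA 32 to 24 bases before the start. *Cyp4b1* held neither motif, nor AGAACA (a hexamer bound by steroid hormone receptors), and its RefSeq start lies inside the span of the gene. *Cyp4f1* held TGTTCT, the reverse complement of AGAACA, 27 to 22 bases before the start. Of 33469 RefSeq promoters cut to the same length, 14.1% held AGGTCA, 17.5% AGAACA and 7.67% TTCNNNGAA on either strand. TATAAA, searched on the gene strand, was in none of these 6 promoters and in 8.06% of all. The matches describe letters of the reference genome and are not sites shown to be bound in these rats. *Cyp4a1*, *Cyp4f4* and *Cyp4v3* had no entry among the promoters.

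Between 13912569 and 20285911 reads fell on genes in males and between 14963924 and 19556707 in females, and every FPKM (fragments on a gene scaled by its length and by the size of the library) could be turned back into a whole number of reads. The mitochondrial share of reads ran from 14.3% to 26.8% and was highest in female 2. Fold changes are of females over males on log2(FPKM + 0.1), from a limma fit over 17631 genes whose mean reached 0.1 FPKM. Called genes have a limma adjusted p no higher than 0.05 together with a log2 fold change of 1 or more, or −1 or less. Values are FPKM per rat, in the order of the rat numbers, and each mean carries the SD of its 5 rats. Bulk tissue cannot tell fewer cells of a type from less RNA per cell.

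The 8 member rows ran from some of the most abundant RNAs of the cortex down to a few reads per library. Only the first *Cyp4a2* row was lower in every female than in every male, and only *Cyp4b1* was higher in every female than in every male. The ranges of the sexes overlapped for the other 6 member rows. Of the 8 rows, 7 had the higher mean in females, the exception being the first *Cyp4a2* row. Of the 7 member rows that passed the filter on low values, 1 lay past both thresholds on the higher and 1 on the lower side, where 0.618% and 0.698% of all genes tested were called. Ranges were separate for 2.5% of all genes tested with females higher and for 2.6% with females lower. Since these rows were selected on the same contrast, nothing is read from their counts.

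**Figure D1:**
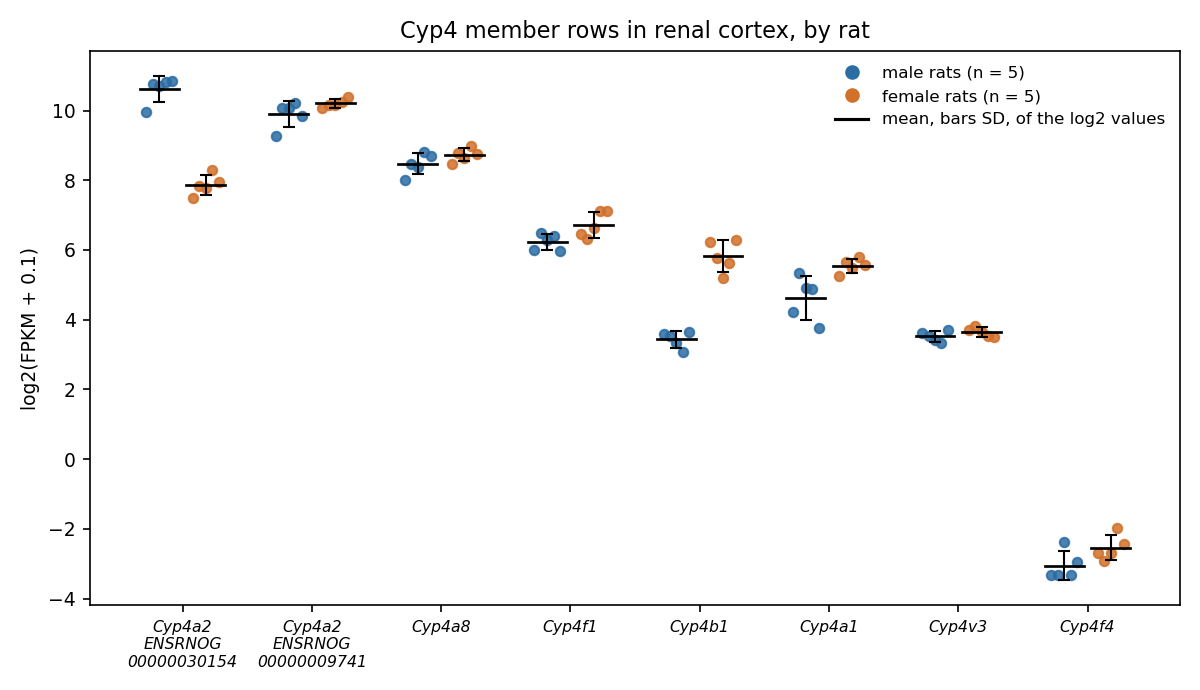
Expression of the 8 Cyp4 member rows in each of 10 rats, as log2(FPKM + 0.1); points are rats, lines the mean and bars the SD of the log2 values (n = 5 per sex). Males and females stand apart for the Cyp4a2 row ENSRNOG00000030154 (log2 fold change −2.75) and for Cyp4b1 (2.40) and overlap for the other 6 rows.

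The *Cyp4a* enzymes are the main arachidonic acid and lauric acid ω-hydroxylases of the rat kidney. The first *Cyp4a2* row was at 999, 1720, 1681, 1816 and 1849 FPKM in the males. In the females it was at 181, 230, 221, 312 and 248 FPKM. The highest female thus stood below the lowest male, and male 1 lay apart below the other 4 males. The means were 1613 ± 350 FPKM in males and 238 ± 47.9 in females, a level 6.78-fold higher in males and a log2 fold change of −2.75. Between 33563 and 81368 reads per male and 6592 and 11992 reads per female fell on this row, so counting error was small beside the spread between rats. By mean FPKM it ranked 22 of all rows in males and 303 in females.

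The second *Cyp4a2* row did not follow the first. It was at 616, 1087, 1083, 1184 and 924 FPKM in the males and at 1067, 1152, 1152, 1223 and 1352 in the females. Males 2, 3 and 4 stood within the range of the females, and 2 females stood above the highest male. The means were 979 ± 223 and 1189 ± 106 FPKM, a log2 difference of 0.31 beside a pooled SD of 0.28 log2 units, or 0.15 without male 1. This row ranked 44 in males and 36 in females, so it was among the most abundant RNAs of the cortex in either sex.

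The ratio of the first to the second *Cyp4a2* row is taken within a library and needs no scaling between libraries. It was 1.62, 1.58, 1.55, 1.53 and 2.0 in the males. In the females it was 0.169, 0.200, 0.192, 0.255 and 0.183. The first row thus exceeded the second in all 5 males and was below it in all 5 females. Against *Cyp4a8*, the first row had a ratio of 4.45 ± 0.510 in males and 0.554 ± 0.0441 in females. The second row stood to *Cyp4a8* at 2.71 ± 0.447 in males and 2.81 ± 0.291 in females, ranges that overlap.

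*Cyp4a8*, a further *Cyp4a* ω-hydroxylase of the rat kidney, was at 260, 352, 334, 445 and 419 FPKM in the males. The females were at 356, 442, 401, 505 and 431 FPKM. All but 1 of the females lay within the range of the males. The means were 362 ± 73.4 and 427 ± 54.8 FPKM, a log2 difference of 0.25, or 0.14 without male 1.

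*Cyp4a1*, the clofibrate-inducible lauric acid hydroxylase first known from liver, was far less abundant than the *Cyp4a2* rows and *Cyp4a8*. It was at 18.7, 40.2, 30.2, 29.5 and 13.5 FPKM in the males and at 37.9, 50.3, 44.3, 55.6 and 46.9 in the females. Of the females, 4 stood above the highest male and female 1 stood below male 2. The means were 26.4 ± 10.5 and 47.0 ± 6.60 FPKM, a log2 difference of 0.92 that did not reach 1. The males varied more than the females, with a coefficient of variation of 39.8% against 14.0%. Without male 2, the log2 fold change was 1.09 and *Cyp4a1* too lay past both thresholds, which raised the member rows past them on the higher side from 1 to 2.

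*Cyp4b1* is known for hydroxylating short and medium-chain fatty acids and for activating plant toxins such as 4-ipomeanol. It was at 12.0, 11.4, 10.04, 8.23 and 12.3 FPKM in the males. In the females it was at 75.1, 54.8, 36.8, 49.3 and 78.4 FPKM. Each female stood above each male, and the females spread over a wider range than the males did. The means were 10.8 ± 1.68 FPKM in males and 58.9 ± 17.6 in females, a log2 fold change of 2.40. Its reads numbered 285 to 418 in each male and 1223 to 2482 in each female. The ratio of *Cyp4b1* to its neighbour *Cyp4a1* was 0.279 to 0.915 in males and 0.830 to 1.98 in females, and these ranges overlapped.

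The *Cyp4f* enzymes hydroxylate leukotriene B4 and also arachidonic acid. *Cyp4f1* was at 64.4, 88.9, 77.8, 84.6 and 63.0 FPKM in the males and at 88.6, 79.1, 98.6, 138.0 and 138.5 in the females. Females 3, 4 and 5 stood above the highest male, and females 1 and 2 stood within the range of the males. The means were 75.7 ± 11.7 and 108.5 ± 28.0 FPKM, a log2 difference of 0.49. *Cyp4f4* had 0, 0, 3, 0 and 1 reads in the males and 2, 1, 2, 6 and 3 reads in the females. With no male above 3 reads, the limit set for detection, no fold is given, and a sex difference was not detectable at this depth.

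*Cyp4v3*, the rat counterpart of the human fatty acid hydroxylase gene *CYP4V2*, had the smallest difference of the 7 rows fitted. It was at 12.3, 11.4, 10.6, 9.87 and 13.0 FPKM in the males and at 12.9, 14.1, 12.5, 11.4 and 11.2 in the females. Males and females were interspersed, with means of 11.4 ± 1.26 and 12.4 ± 1.18 FPKM and a log2 fold change of 0.12.

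The order of the members by mean FPKM, a level per length of gene, was not the same in males and females. In males it ran from the first *Cyp4a2* row through the second, *Cyp4a8*, *Cyp4f1*, *Cyp4a1*, *Cyp4v3* and *Cyp4b1* to *Cyp4f4*. Neighbours in this order did not overlap, except the *Cyp4a2* rows and the pair of *Cyp4v3* and *Cyp4b1*, and even for these the higher was above the lower in each of the 5 males. In females the second *Cyp4a2* row came first, followed by *Cyp4a8*, the first *Cyp4a2* row, *Cyp4f1*, *Cyp4b1*, *Cyp4a1*, *Cyp4v3* and *Cyp4f4*. Only *Cyp4b1* and *Cyp4a1* overlapped as neighbours, with *Cyp4b1* above *Cyp4a1* in 3 of the 5 females.

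Summed over the 8 rows, the members came to 1983, 3311, 3226, 3578 and 3294 FPKM in the males. The females came to 1818, 2022, 1966, 2294 and 2305 FPKM. Male 1 lay within the range of the females and the other 4 males above it, and the means were 3078 ± 627 and 2081 ± 213 FPKM. The female total was 0.676 times that of the males, and 0.621 times without male 1. Without the first *Cyp4a2* row, the *Cyp4a* rows summed to 1367 ± 286 FPKM in males and 1663 ± 148 in females, and the ranges overlapped. The direction of the difference in the *Cyp4a* total thus turned on the 1 row.

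The makeup of the total differed between the sexes as well. The first *Cyp4a2* row made up 50.4% to 56.1% of it in males and 9.93% to 13.6% in females. The second made up 28.1% to 33.6% in males and 53.3% to 58.7% in females. *Cyp4a8* made up 11.8% ± 1.27 in males and 20.5% ± 1.44 in females, and *Cyp4f1* 2.52% ± 0.491 and 5.16% ± 0.883. *Cyp4b1* made up 0.373% ± 0.141 of the total in males and 2.85% ± 0.923 in females. Shares of a sum depend on one another, so these differences are not separate results.

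**Figure D2:**
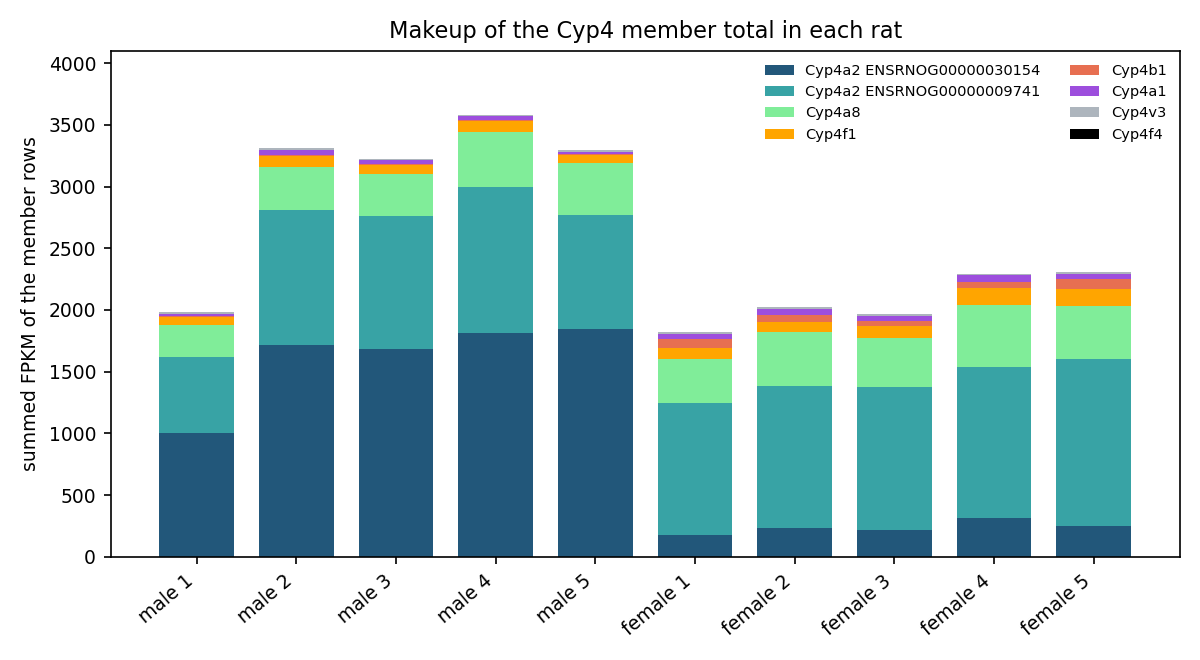
Summed FPKM of the 8 Cyp4 member rows in each of 10 rats, stacked by row. The Cyp4a2 row ENSRNOG00000030154 (bottom) makes up 50.4% to 56.1% of the total in males and 9.93% to 13.6% in females, and male 1 has a total of 1983 FPKM, within the range of the females.

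Rats of the same sex also differed from each other in the *Cyp4a* rows. Male 1 was below the male mean in all 4 of them, by a median of 0.54 log2 units (−0.54), and had the lowest male value in both *Cyp4a2* rows and in *Cyp4a8*. Its 12 proximal tubule markers had a median difference of −0.06 from the male mean, with 8 of 12 below that mean. In male 5 the markers were lower, with a median of −0.51 and 12 of 12 below the male mean, while its *Cyp4a* rows had a median of 0.09. *Cyp4a1* alone was far down in male 5, at −0.87. Female 1 was below the female mean in all 4 *Cyp4a* rows and female 4 above it in all 4, with medians of −0.27 and 0.25 beside marker medians of −0.27 and 0.39. Female 3 was also below the mean in all 4 and female 5 above it in all 4, with medians of −0.08 and 0.05 beside marker medians of −0.01 and 0.25. In males 2, 3 and 4 the *Cyp4a* medians were 0.14 to 0.29 and the marker medians 0.12 to 0.35. In female 2 the markers were at −0.40 and the *Cyp4a* rows at 0.02. What set these rats apart was not tested.

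**Figure D3:**
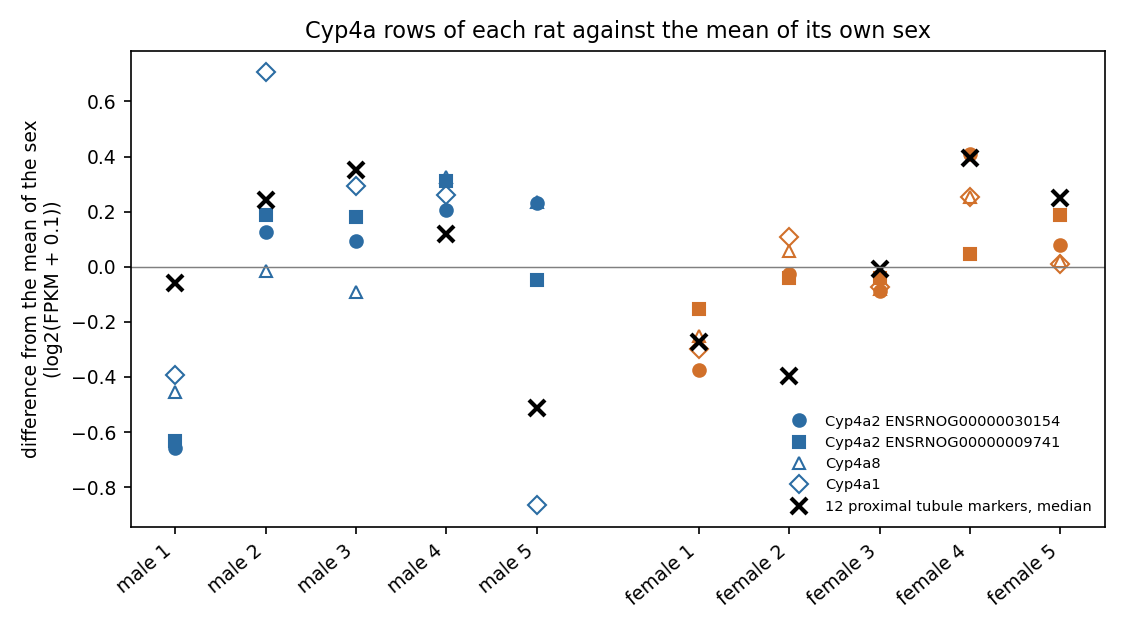
Difference of each rat from the mean of its own sex, in log2(FPKM + 0.1), for the 4 Cyp4a rows and, as crosses, for the median of 12 proximal tubule markers. All 4 Cyp4a rows of male 1 lie below 0 beside a marker median of −0.06, and in male 5 the markers are at −0.51 while the Cyp4a2 row ENSRNOG00000030154 and Cyp4a8 are above 0.

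By position on chromosome 5, rows of opposite direction lay within the same cluster. The first *Cyp4a2* row, with −2.75, stood alone between *Cyp4a8* (0.25) and the second *Cyp4a2* row (0.31). Along the far end of the cluster the log2 fold change was 0.31 for the second *Cyp4a2* row, 0.92 for *Cyp4a1* and 2.40 for *Cyp4b1*, with standard errors of 0.18, 0.26 and 0.20. *Cyp4a1* is on the plus strand and its neighbours are on the minus strand. Upstream, *Cyp4a2* and *Cyp4a3* have almost the same sequence in the lines printed above, and *Cyp4b1* has another. *Cyp4a2l1* is identical to *Cyp4a2* over the 214 bases they share, at another distance from its start. Which of these genes each *Cyp4a2* row stands for was not tested.

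**Figure D4:**
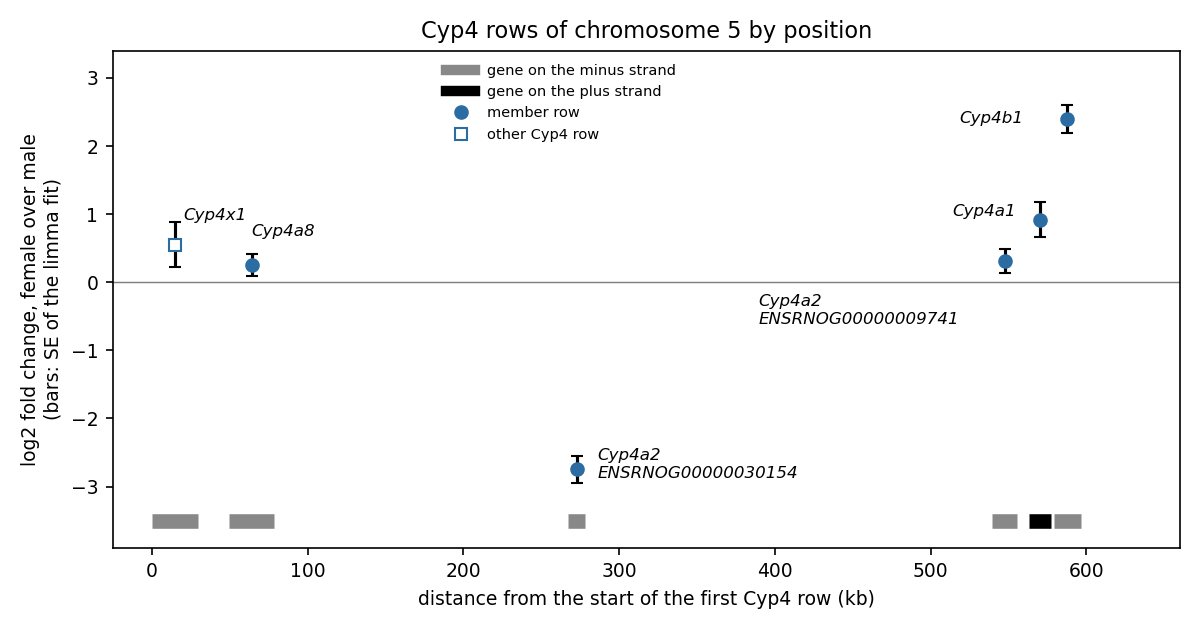
Log2 fold change, female over male, of the 6 Cyp4 rows of chromosome 5 against the distance in kb from the start of the first of them; bars are the standard error of the limma fit, and the blocks at the bottom show each gene's extent and strand. The Cyp4a2 row ENSRNOG00000030154 is at −2.75 and Cyp4b1 at 2.40, with the other 4 rows between 0.25 and 0.92.

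Another 8 *Cyp4* rows were listed, of which 5 passed the filter, and none of these was called. No such row had an unadjusted p under 0.05 or was called by limma-voom, and the lowest adjusted p by limma was 0.463, for *Cyp4x1* at 0.460 ± 0.157 FPKM in males and 0.750 ± 0.356 in females. *Cyp4f17* was at 0.992 ± 0.284 and 0.839 ± 0.173 FPKM (log2 fold change −0.20, limma adjusted p = 0.708). *Cyp4f6* was at 0.253 ± 0.164 and 0.146 ± 0.0578 FPKM (−0.40, adjusted p = 0.697). *Cyp4f37* is listed under 2 identifiers, with log2 fold changes of 0.20 and −0.83 (limma adjusted p = 0.933 and 0.547), and the highest value of any of these rows was its 1.51 FPKM in female 1. *Cyp4f18*, *Cyp4f39* and *Cyp4f40* were below the filter, with at most 5 reads in any library. Each of these rows thus stayed far below the abundant *Cyp4a* rows, and RNA of *Cyp4* genes without a row was not measured here.

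Of the genes around the pathway, 7 lists held 74 genes, 69 had a row and 65 were tested. None was called higher in females and 3 were called lower, namely *Cyp2c11*, *Esr1* and *Prlr*. A further gene, *Pla2g15*, passed the adjusted p without reaching the fold. The median log2 fold change over the 65 genes was −0.01, as over all genes tested. By limma-voom on the reads behind the FPKM, 0 were higher and the same 3 lower.

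*Cyp4* enzymes take electrons from P450 reductase, and the cytochrome b5 system can assist P450 reactions. None of the 5 genes listed for these was called, with an unadjusted p under 0.05 for 1. *Por*, P450 reductase, was at 49.0 ± 8.21 FPKM in males and 59.8 ± 9.80 in females (0.29 on the log2 scale, limma adjusted p = 0.356). *Cyb5r1*, a cytochrome b5 reductase, was at 14.8 ± 0.766 and 12.8 ± 1.09 FPKM (−0.21, adjusted p = 0.229).

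Of 8 genes tested for release and reacylation of arachidonic acid, 1 passed the adjusted p alone. *Pla2g15*, the lysosomal phospholipase A2, was at 17.3 ± 1.41 FPKM in males and 12.3 ± 1.70 in females (−0.50 on the log2 scale, limma adjusted p = 0.0353). All 5 females stood below all 5 males. The adjusted p ranged from 0.0270 to 0.104 over the alternatives and was above 0.05 without any 1 of the males (0.0515 to 0.0874), without female 1, 4 or 5 (0.0568 to 0.0895), without the filter (0.0886), without the trend in eBayes (0.0622) and with the replicate number as a block (0.104). *Pla2g6*, the calcium-independent phospholipase A2, was at 13.3 ± 1.24 and 19.3 ± 4.86 FPKM (0.51, limma adjusted p = 0.137). *Pla2g4a*, the cytosolic phospholipase A2 specific for arachidonic acid, was at 3.06 ± 0.335 and 3.16 ± 1.10 FPKM (adjusted p = 0.996).

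The epoxygenases compete with *Cyp4* enzymes for arachidonic acid, and 1 of 6 tested genes of this branch was called. *Cyp2c11*, the male-specific P450 of rat liver, had 0 to 59 reads per library in cortex, at 0.381, 1.87, 0.204, 0.457 and 0.785 FPKM in males and at 0, 0.125, 0, 0.0332 and 0 in females. It fell by 2.44 on the log2 scale (limma adjusted p = 0.0243), a value set in part by the added 0.1 FPKM, and the adjusted p was above 0.05 with a pseudocount of 1 (0.115), without the filter (0.0833) and without male 4 or 5 or female 1, 3, 4 or 5 (0.0509 to 0.0670), within a range of 0.0154 to 0.115 over all alternatives. *Cyp2c23*, the main arachidonic acid epoxygenase of rat kidney, had means near those of the second *Cyp4a2* row, at 950 ± 211 FPKM in males and 1281 ± 276 in females (0.44, limma adjusted p = 0.328). *Cyp2j4* was at 4.80 ± 1.68 and 2.45 ± 0.448 FPKM (−0.90, limma adjusted p = 0.0530), with each male above each female. Its adjusted p ranged from 0.0429 to 0.159 over the alternatives and was under 0.05 with the replicate number as a block (0.0429), a filter at 1 FPKM (0.0449), limma-voom (0.0478) and scaling by total reads (0.0498), always short of the fold of a call. *Ephx2*, the soluble epoxide hydrolase that opens the epoxides, was at 3.80 ± 0.997 and 3.99 ± 0.928 FPKM (adjusted p = 0.902).

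Downstream of ω-hydroxylation, where the product is oxidised to a dicarboxylic acid and shortened in peroxisomes, none of 12 genes was called, with an unadjusted p under 0.05 for 2. *Crot*, which passes shortened chains out of the peroxisome as carnitine esters, was at 31.9 ± 3.86 FPKM in males and 46.2 ± 10.4 in females (0.51, limma adjusted p = 0.121, or 0.0475 without female 2, within a range up to 0.299). *Acsl1*, an acyl-CoA synthetase, was at 37.3 ± 8.24 and 53.2 ± 10.5 FPKM (0.52, limma adjusted p = 0.175).

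Genes through which 20-HETE acts were not called either, 0 of 8, with an unadjusted p under 0.05 for 1. *Gpr75*, a 20-HETE receptor, was at 0.173 ± 0.0350 FPKM in males and 0.204 ± 0.191 in females (limma adjusted p = 0.980). *Slc12a1*, the sodium-potassium-chloride cotransporter of the thick ascending limb, was at 122 ± 19.5 and 155 ± 24.3 FPKM (0.35, limma adjusted p = 0.243). *Kcnmb1* and *Kcnma1*, subunits of the large-conductance potassium channel that 20-HETE closes in arteries, had log2 fold changes of −0.42 and 0.13 (adjusted p = 0.582 and 0.875).

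For PPAR-alpha and its targets outside the *Cyp4* family, 0 of 15 tested genes were called, with an unadjusted p under 0.05 for 1, and the median log2 fold change was −0.07. *Ppara* itself was at 8.25 ± 3.67 FPKM in males and 7.37 ± 2.17 in females (−0.08, limma adjusted p = 0.946). *Acadm*, a mitochondrial acyl-CoA dehydrogenase, was at 214 ± 29.4 and 162 ± 26.9 FPKM (−0.41, limma adjusted p = 0.154). Its adjusted p ranged from 0.00765 to 0.322 over the alternatives and was under 0.05 with quantile normalization, where the log2 fold change was −0.51. *Ppargc1a*, a coactivator, was at 13.6 ± 2.44 and 16.8 ± 2.78 FPKM (0.31, limma adjusted p = 0.330).

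Among the hormone receptors and their signal partners, 2 of 11 tested genes fell in females. *Prlr*, the prolactin receptor, was at 12.8, 16.5, 12.2, 35.8 and 20.8 FPKM in males and at 5.94, 3.18, 3.73, 5.67 and 4.44 in females. Each male was above each female, and the fold change was −1.99 log2 units (limma adjusted p = 0.00369). *Esr1*, oestrogen receptor alpha, was at 4.75, 5.58, 5.29, 6.88 and 5.03 FPKM in males and at 2.27, 1.66, 1.95, 3.72 and 2.43 in females. It too was separate, at −1.20 log2 units (limma adjusted p = 0.00793), or −0.95 and so not called with a pseudocount of 1. *Bcl6*, a repressor of STAT5 targets, was at 6.0 ± 2.76 and 3.96 ± 1.92 FPKM (−0.60, adjusted p = 0.425).

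**Figure D5:**
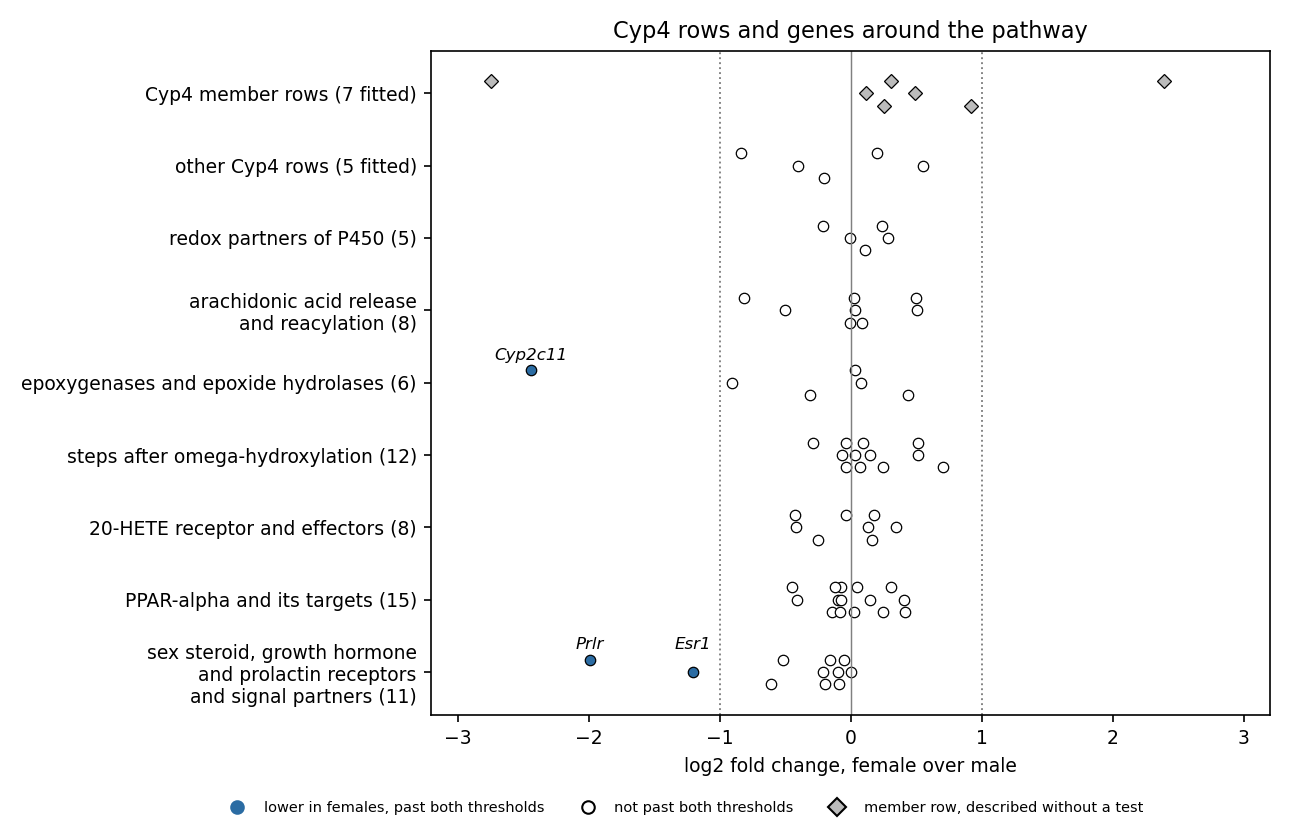
Log2 fold change, female over male, of the Cyp4 rows and of 7 lists of genes around the pathway, 1 point per gene tested; dotted lines mark a log2 fold change of −1 and 1, and filled circles are genes outside the members past both thresholds. Cyp2c11 (−2.44), Prlr (−1.99) and Esr1 (−1.20) are filled circles, and the member rows are grey diamonds, shown without a mark for the thresholds.

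By the root-mean-square difference of centred log2 profiles over the 10 libraries, the genes most like the first *Cyp4a2* row among 13356 genes averaging 1 FPKM or more were *Melk* (0.270), *Mbl1* (0.286) and *Dmrtc1c1* (0.334). *Melk*, a mitotic kinase gene, was at 5.45 ± 1.52 FPKM in males and 0.733 ± 0.159 in females. *Mbl1*, a mannose-binding lectin gene, was at 7.71 ± 2.68 and 1.29 ± 0.492 FPKM. The genes most like *Cyp4b1* were *Cnr1* (0.314), *Ly6i* (0.350) and *LOC685114* (0.385). *Cnr1*, the cannabinoid receptor gene, was at 0.322 ± 0.110 FPKM in males and 2.42 ± 0.414 in females, and *Ly6i* was at 53.6 ± 8.75 and 200 ± 44.0 FPKM. These likenesses are mostly of the sex difference itself, which the choice of the rows used.

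The tissue was checked on 13 lists of cell type markers, in 11 of which no gene was called. The 12 proximal tubule markers summed to 3381 to 5980 FPKM in males and 3839 to 6730 in females, with 7 log2 fold changes positive and 5 negative and none called. Higher in females, *Cubn* (0.72) and *Slc5a1* (0.73) passed the adjusted p alone (limma, 0.0467 and 0.0353). On the other side, *Aqp1* (−0.56) and *Slc22a6* (−0.53), picked after their values were seen, did not pass (limma adjusted p = 0.233 and 0.160). All 5 intercalated cell markers had a positive log2 fold change (median 0.58, sums of 134 to 205 FPKM in males and 215 to 337 in females), with *Atp6v0d2* past the adjusted p alone (limma, 0.0351). The markers tested were also all positive for the thick ascending limb (4 of 4, with *Egf* at 0.82 and a limma adjusted p of 0.00233), principal cells (5 of 5, with *Avpr2* at 0.44 and 0.0469), podocytes (4 of 4) and the distal convoluted tubule (2 of 2), none of them called. All 5 fibroblast markers (median −0.80, sums of 176 to 250 and 61.1 to 187) and all 5 macrophage markers (median −0.54, sums of 88.9 to 173 and 41.5 to 101) had a negative one, without a call. The part of these cells in the values of *Cyp4b1* and the first *Cyp4a2* row was not tested. The 6 adipocyte markers summed to 15.5 to 29.4 FPKM in males and 12.4 to 18.4 in females, and the 4 tested did not share a direction, with 1 positive and 3 negative. *Cidec* was called lower in females (−1.89, limma adjusted p = 0.00156), whereas *Adipoq* was at 3.04 to 4.49 FPKM in males and 4.65 to 9.99 in females, separate ranges with females higher (0.74, limma adjusted p = 0.0731). The 5 liver markers summed to 0.505 to 6.93 FPKM in males and 1.42 to 6.32 in females, with *Ttr* called higher on at most 12 reads per library (2.64, limma adjusted p = 0.0142), and the 4 adrenal markers with a row to 0.606 to 1.16 and 0.704 to 1.18 FPKM. Liver and adrenal markers were thus near 0 beside the levels of the *Cyp4a2* rows.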

How the data were processed

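The RNA-seq libraries came from renal cortex of 10 PCK rats, grouped by the sex in the labels. The deposited values are FPKM per gene, which the authors' provider computed after mapping with HISAT2 to Rnor_6.0. The submitters' processing notes name fastp, HISAT2 2.0.5, StringTie 1.3.3b and featureCounts 1.5.0-p3, and the strand setting of the counting is not given in the sources used here. The authors tested their counts with DESeq2, and those counts were not used here.

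Each FPKM was divided by the value of 1 read at the gene's deposited length, which gave whole reads (tolerance 0.01) for 100% of values. The median-ratio factor was 1.01 in all libraries, so the FPKM carry such a scaling already. Even the most alike libraries differed beyond sampling noise (chi-square over degrees of freedom 9.71), so none was merged. limma 3.58.1 in R 4.3.3 (lmFit, eBayes with trend) was run on log2(FPKM + 0.1), with Benjamini-Hochberg adjustment over 17631 genes, and was tested on simulated data. Python 3.11.15 and Biopython 1.88 (global alignment of upstream sequences from RefSeq, GRCr8) did the rest.

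The members and gene lists were chosen with earlier results of these data known. Named were all *Cyp4* rows, called genes of each list, up to 2 further genes per list with the lowest p, genes whose role is explained, and the 3 genes most like each of the 2 most variable member rows. *Cyp46a1*, of another family, shares the prefix and was left out. *Cyp2c24*, *Cyp2j3*, *Adh1*, *Adh5* and *Acot1* of the lists and the marker *Cyp11b1* matched no row by symbol. Some genes of the lists are counted but not reported here by name. Replicate numbers did not pair the rats. Pseudocounts of 1 and 0.01, other filters and scalings, other eBayes settings, no fold threshold, a replicate block, limma-voom run on recovered reads and omission of each library were alternatives. Limits and intervals cover counting error only.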

Additional observations from a re-analysis of the deposited data

Results flagged for a closer look

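Among 98 sets of 5 rats (the *Cyp4* rows, the named genes and the totals, each sex apart), 9 had a rat far from the other 4 by Dixon's ratio at the 95% level. Chance alone flags about 1 in 20 such sets. Male 1 held 3 of them on the low side, which are not independent of each other. They were the first *Cyp4a2* row at 999 FPKM, with the next male at 1681, the member total at 1983 FPKM, with the next at 3226, and the share of reads on member rows at 0.439% (95% Wilson interval 0.436% to 0.443%), with the next at 0.666%. In male 5 the ratio of the first to the second *Cyp4a2* row was 2.0, with the next male at 1.62. Female 2 was high in *Ppargc1a* at 21.6 FPKM, with the next female at 16.3, and in *Cyp2c11* at 0.125 FPKM. Female 4 was high in *Mbl1* at 2.13 FPKM and *Dmrtc1c1* at 3.06 FPKM. Both genes were chosen for a profile over these libraries like that of the first *Cyp4a2* row, in which female 4 was also the highest female, so they are no separate evidence about that rat. Female 1 was high in *Cyp4f37* (ENSRNOG00000048979) at 1.51 FPKM, with the next female at 0.287.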

How the results depend on the processing

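Over 22 alternatives each, the log2 fold change stayed between −2.91 and −2.65 for the first *Cyp4a2* row and between 2.28 and 2.55 for *Cyp4b1*, and the 7 fitted member rows kept their sign. *Cyp4a1* ranged from 0.70 to 1.09, *Cyp4f1* from 0.40 to 0.60, the second *Cyp4a2* row from 0.15 to 0.39, *Cyp4a8* from 0.13 to 0.34 and *Cyp4v3* from 0.04 to 0.17. Member rows past both thresholds on the higher side went from 1 to between 1 and 2 when 1 library was left out, the 2 being reached without male 2. The member total differed by −997 FPKM, female minus male, and by −1271 to −872 FPKM without 1 library. Genes called in the whole table numbered 109 higher and 123 lower, 65 and 72 with a pseudocount of 1 and 223 and 201 by the adjusted p alone. Without 1 library they numbered 82 to 114 and 89 to 148. Pathway genes called lower went from 3 to 1 with a pseudocount of 1, *Prlr* remaining. Scaling by total reads moved the median of all genes to −0.08. With the replicate number as a block, 89 and 87 genes were called, and calls of member, other *Cyp4* and pathway genes did not change in number. Of 5 same-numbered pairs none correlated above 0.1, and 1 of 10 libraries correlated best with its own number. Leaving out male 1 and female 2 together, chosen after seeing the data, gave 101 and 123 calls and a member total lower by 1256 FPKM (−1256). Counting limits only the rows of a few reads, such as *Cyp4f4*.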
